A study of Mus musculus with 12 samples.

Results

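The 78 mitochondrial ribosomal protein (MRP) genes of the mouse were followed in tibialis anterior (TA) muscle, a fast muscle of the lower hindlimb, before birth and during postnatal growth. Members were the protein-coding genes whose symbol starts with Mrpl or Mrps followed by a number, and they made up 78 of the 55450 genes in the count table. RNA of whole muscle pieces was sequenced from wild-type mice of the 129SvPas background (129Pas in the sample labels), with no treatment, shortly before birth (E18.5, in days of embryonic life), at 2 weeks (wks) and at 7 wks of age. Each age was represented by 4 mice, which gave 12 libraries, and the series was collected to follow splicing while muscle develops after birth. A total of 77 members had enough reads to be tested. *Mrpl53* was listed at 0 reads in all 12 libraries.

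Mitochondria carry ribosomes of their own, which translate the few mRNAs of the mitochondrial genome into core subunits of the oxidative phosphorylation (OXPHOS) complexes. The ribosomal RNAs come from mitochondrial DNA, whereas all the proteins are made from nuclear genes in the cytosol and imported. The large subunit holds the peptidyl transferase centre and the small subunit the decoding centre, and each contains proteins inherited from the bacterial ancestor together with proteins found in mitochondria alone. Muscle fibres depend on OXPHOS for sustained work, and their mitochondrial content grows around and after birth.

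Of the members, 51 encode large-subunit proteins and 26 small-subunit proteins. Names do not always follow the subunit, since the products of *Mrps18a* and *Mrps30* sit in the large subunit. *Mrps36* belongs to neither, because its product is known as a component of the alpha-ketoglutarate dehydrogenase complex. By origin, 48 members have a bacterial homologue and 30 do not.

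Library totals ranged from 63018968 to 123449246 counted reads. The 77 tested members had between 138 and 27786 reads in a library. Summed CPM (counts scaled to a common library size) of 7 muscle fibre markers was 12733 to 23100 at E18.5 and 116858 to 157752 at the later ages. The sum does not speak for each marker. In the test described below, 5 of them were higher and 2 lower from E18.5 to 2 wks. From 2 to 7 wks 0 were higher and 2 lower. Some libraries stood apart in markers of other cells. Summed adipocyte markers reached 1907 and 2679 CPM in replicates 3 and 4 of E18.5 against 230 and 176 in the other embryos, nerve markers reached 663 CPM in replicate 1 of 2 wks against at most 245 in its group, and fibroblast markers reached 2805 CPM in replicate 1 of 7 wks against at most 978. Replicate 2 of E18.5 was highest in cartilage and bone (142.4 CPM, others 24.2 to 60.6), epidermis (26.8 CPM, others 1.51 to 4.45) and fibroblast markers (7127 CPM), and replicates 1 and 2 of 2 wks in red blood cell markers (477 and 756 CPM, others 145.5 and 148.4). Proliferation markers summed to 389 to 570 CPM at E18.5 and to 3.00 to 13.6 CPM at 7 wks. The part of these shifts in the results below was not tested, and in whole muscle fewer cells of a type cannot be told apart from less RNA per cell.

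Most MRP genes were higher at 2 wks than at E18.5. With TMM scaling, which sets libraries level on the bulk of their genes, 71 of the 77 tested members were higher and 0 were lower (edgeR quasi-likelihood test with Benjamini-Hochberg adjustment over all genes, adjusted p below 0.05). Among all 19276 genes tested, 31.5% were higher and 34.2% were lower. As a group the members had a median log2 fold change of 1.19, a 2.28-fold rise, against -0.09 for all genes. The rise was at least 2-fold in 50 members and at least 4-fold in 16, and the shares of all genes at these cut-offs are not given here. In 69 members, every 2-wk library lay above every embryonic library, which was the case for 28.9% of all genes. Leaving out the 2 embryos with high adipocyte markers left 70 members higher and 0 lower.

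How far the family rose depended on the scale. The 20 most abundant genes took 15.04% ± 1.01 (SD, n = 4) of the counts in embryos, 34.3% ± 1.097 in mice of 2 wks and 37.2% ± 0.604 in mice of 7 wks, and scaling to the total count moved the median of all genes to -1.02. On that scale 33 members were higher and 12 were lower from E18.5 to 2 wks, against 13.2% and 61.8% of all genes, and the median of the members was 0.25. A change of scale moves all genes by about the same amount. The distance of the members' median from that of all genes (1.28 with TMM, 1.27 on the total count) is therefore nearly fixed by construction. The members' median itself, the calls and the signs of single members depend on the choice.

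**Figure D1:**
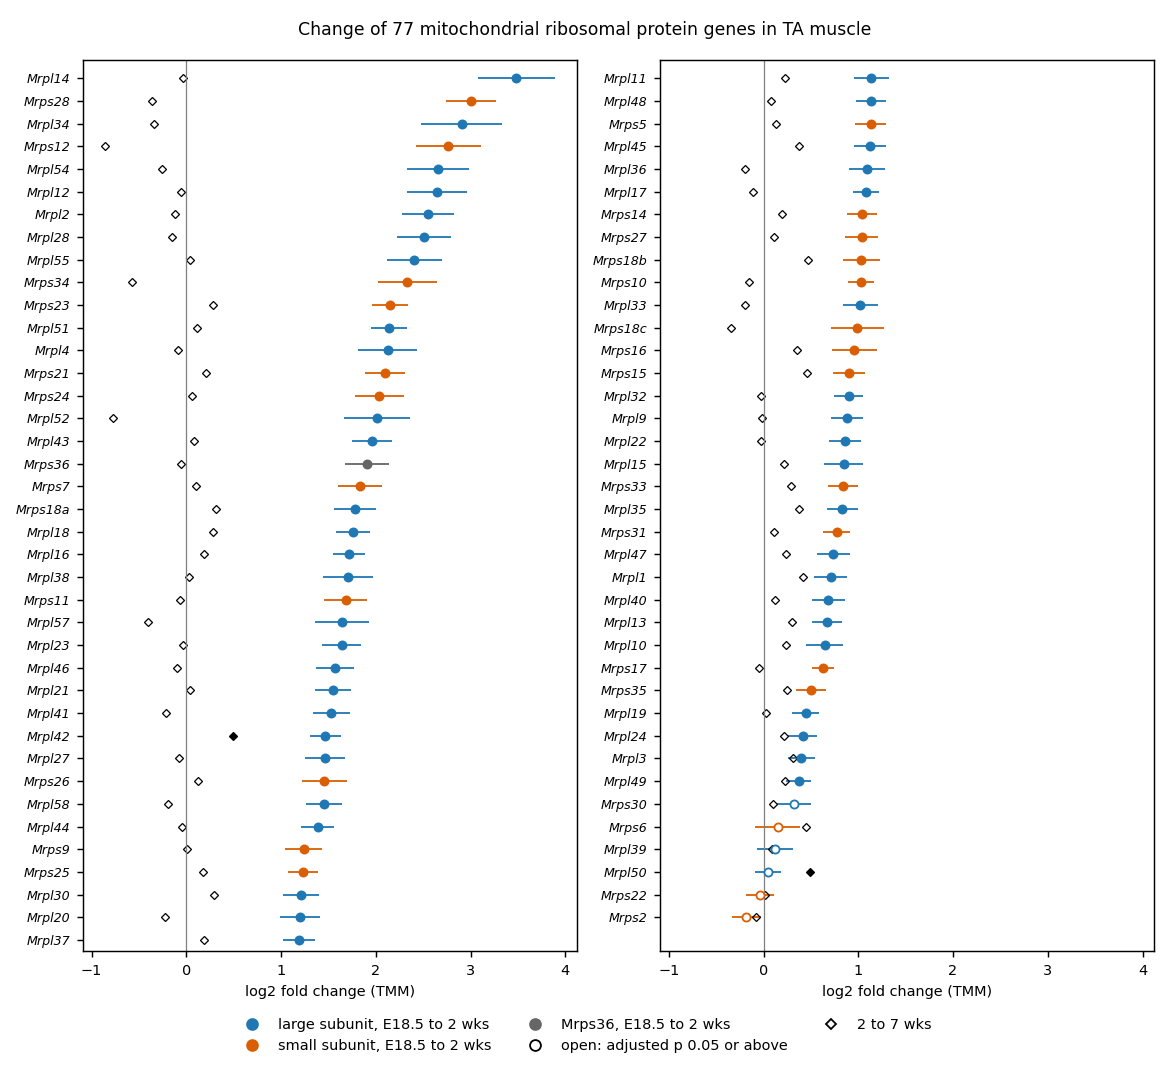
Log2 fold change (TMM) of each of the 77 tested MRP genes, sorted, with circles and standard errors for E18.5 to 2 wks (blue, large subunit; orange, small subunit; grey, Mrps36) and diamonds for 2 to 7 wks. Filled symbols passed the adjusted threshold. The circles run from 3.48 for Mrpl14 to -0.18 for Mrps2, and only 2 diamonds, Mrpl42 and Mrpl50, are filled.

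Both subunits took part. In the large subunit 47 of 50 tested members were higher at 2 wks, with a median log2 fold change of 1.21, and in the small subunit 23 of 26 were higher, with a median of 1.04. All 31 large-subunit members with a bacterial homologue rose with TMM, and so did 16 of the 19 without one, 15 of 17 bacterial-type members of the small subunit and 8 of its 9 mitochondria-specific members. On the total count the split was 24 higher and 7 lower in the large subunit and 8 higher and 5 lower in the small subunit.

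*Mrpl14* (chr17:45996373-46010480, GRCm39), a conserved large-subunit protein at the interface of the subunits, rose most. Its CPM was 2.10, 7.99, 4.602 and 5.11 in the 4 embryos, 50.8, 52.1, 46.6 and 71.7 in the mice of 2 wks and 25.95, 41.8, 84.0 and 64.2 in those of 7 wks. The embryos all lay far below the later ages, and the 7-wk mice spanned a wider range than the 2-wk mice and included them. By 2 wks it had risen by 3.48 ± 0.41 on the log2 scale (SE, adjusted p = 7.68e-06), which is 11.2-fold. *Mrps18a* and *Mrpl2* lie on the same stretch of chromosome 17 (chr17:46421909-46446812 and chr17:46957117-46961065), and they rose by 1.78 ± 0.23 and 2.56 ± 0.27. The next member along it, *Mrps10* (chr17:47679620-47692441), rose less, by 1.02 ± 0.14.

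*Mrps28*, a small-subunit protein, followed with CPM of 4.70, 6.82, 5.04 and 6.07 in the embryos, 44.5, 47.6, 37.2 and 52.8 at 2 wks and 20.7, 29.1, 55.2 and 36.6 at 7 wks. The embryonic values were tight and well separated, while 3 of the 4 mice of 7 wks lay below the lowest of 2 wks. Its log2 fold change to 2 wks was 3.01 ± 0.26 (adjusted p = 7.34e-07). *Mrpl34*, a small conserved protein of the large subunit, went from 1.05, 2.38, 2.07 and 3.39 CPM to 12.2, 12.6, 14.8 and 27.2 CPM, a log2 fold change of 2.91 ± 0.43 (adjusted p = 4.93e-05). These ages did not overlap, and in both of them replicate 4 was the highest mouse.

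*Mrps12*, whose bacterial counterpart lines the decoding centre, read 1.84, 2.98, 2.27 and 2.41 CPM at E18.5, 15.5, 15.6, 12.8 and 20.9 CPM at 2 wks and 4.01, 6.63, 15.3 and 9.81 CPM at 7 wks. It was high at 2 wks in every mouse, and at 7 wks only replicate 3 reached the range of 2 wks. The log2 fold change was 2.77 ± 0.34 to 2 wks (adjusted p = 1.17e-05) and -0.86 ± 0.32 from 2 to 7 wks, which missed the threshold (adjusted p = 0.062). *Mrpl54*, a mitochondria-specific protein of the large subunit, rose by 2.66 ± 0.33, from 5.63 ± 1.72 CPM (SD, n = 4) to 35.6 ± 6.05.

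The stalk of the large subunit, which recruits translation factors, is built on the products of *Mrpl10*, *Mrpl11* and *Mrpl12*. *Mrpl12* read 11.2, 32.8, 27.3 and 31.3 CPM in the embryos and 151.6, 146.7, 146.5 and 197.1 CPM at 2 wks and 99.96, 148.5, 222.5 and 148.4 CPM at 7 wks, with a log2 fold change of 2.65 ± 0.32 to 2 wks (adjusted p = 9.05e-06). *Mrpl11* rose from 19.5 ± 3.82 to 42.9 ± 2.69 CPM, by 1.14 ± 0.18 with TMM, but by 0.21 on the total count, which did not pass (adjusted p = 0.327). *Mrpl10* rose least, from 29.5 ± 7.68 to 46.2 ± 4.28 CPM, by 0.65 ± 0.19 with TMM (adjusted p = 0.00921), but its estimate was -0.29 on the total count. The stalk genes therefore differed in the size of their change, with no overlap between embryos and 2-wk mice in any of them.

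The Mrps18 paralogs, which descend from a single bacterial gene, also differed in level and change. The mean level of *Mrps18a* was 17.98 ± 4.35 CPM in embryos, 61.8 ± 12.3 CPM at 2 wks and 76.6 ± 19.7 CPM in the oldest mice. *Mrps18b* went from 17.7 ± 5.23 to 36.1 ± 5.35 and 50.1 ± 2.86 CPM, a log2 fold change of 1.03 ± 0.20 to 2 wks. *Mrps18c* was low throughout, at 3.24 ± 0.835, 6.43 ± 0.826 and 5.04 ± 2.24 CPM, with a log2 fold change of 0.99 ± 0.28 to 2 wks (adjusted p = 0.00703), and it was the only member higher at 2 wks but not at 7 wks against E18.5. On the total count the estimates of *Mrps18b* and *Mrps18c* were 0.09 and 0.06 and did not pass (adjusted p = 0.686 and 0.839), while that of *Mrps18a* was 0.84. Of the exon bases of *Mrps18c*, 76.9% are shared with *Abraxas1* on the opposite strand.

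*Mrpl58*, a peptidyl-tRNA hydrolase that rescues stalled ribosomes and is built into the large subunit, rose by 1.46 ± 0.19, from 13.9 ± 2.58 to 38.03 ± 4.85 CPM. *Mrps36* rose by 1.91 ± 0.23, from 23.1 ± 8.67 to 86.7 ± 13.6 CPM.

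**Figure D2:**
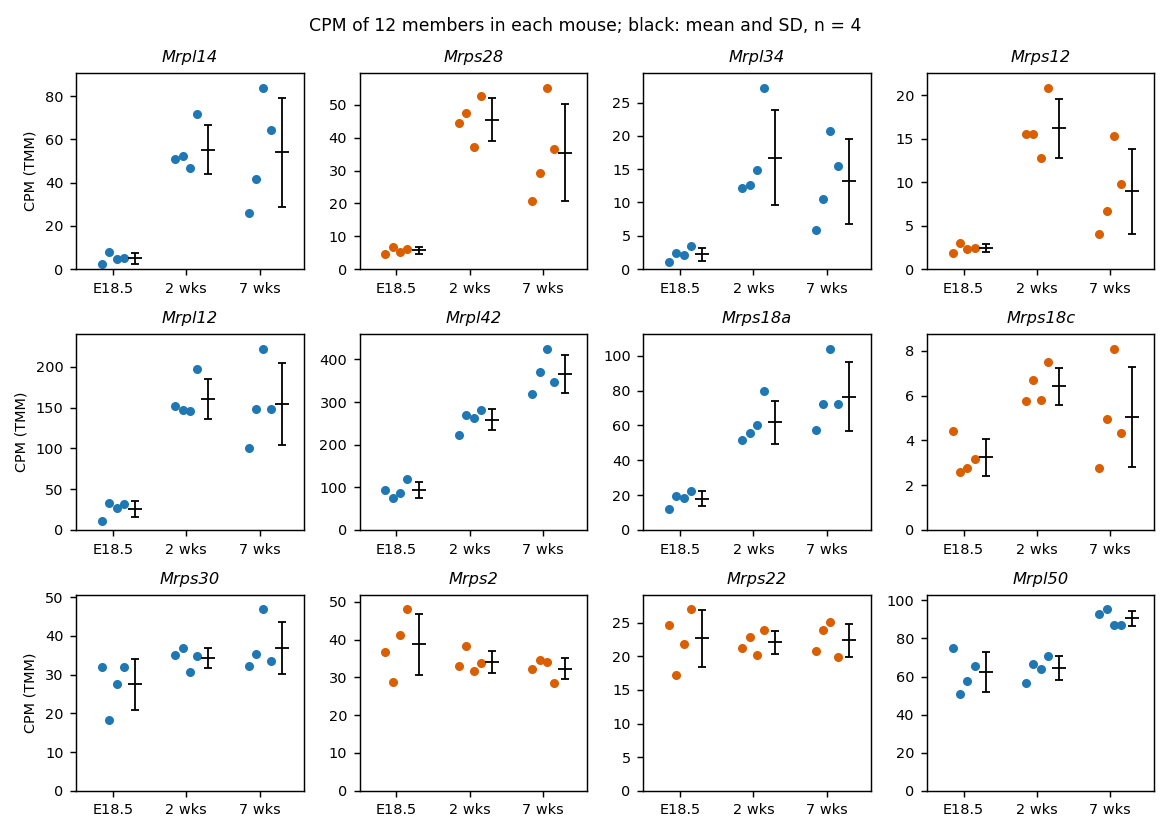
CPM with TMM scaling of 12 MRP genes in each mouse (coloured points; blue, large subunit; orange, small subunit), with the mean and SD of 4 mice in black and the vertical axis from 0. The top row shows steep rises to 2 wks. Mrps2 and Mrps22 stay level, and Mrpl50 is level until 2 wks and lies higher in all 4 mice of 7 wks.

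There were 6 tested members that did not pass the threshold between E18.5 and 2 wks. *Mrps22*, a mitochondria-specific small-subunit protein, read 24.7, 17.2, 21.8 and 27.0 CPM at E18.5, 21.3, 22.9, 20.2 and 23.9 CPM at 2 wks and 20.8, 23.9, 25.1 and 19.9 CPM at 7 wks. *Mrps2*, a conserved small-subunit protein, read 36.8, 28.8, 41.2 and 47.9 CPM at E18.5, 32.9, 38.3, 31.7 and 33.7 CPM at 2 wks and 32.1, 34.6, 34.1 and 28.4 CPM at 7 wks. For both genes the 3 ages overlapped, with the widest spread among the embryos.

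The log2 fold changes to 2 wks were -0.18 ± 0.15 for *Mrps2* and -0.04 ± 0.15 for *Mrps22*, and neither passed in any of the 3 pairwise comparisons with TMM, nor did *Mrpl39* (0.12 ± 0.19). *Mrpl50* (0.05 ± 0.14), *Mrps6* (0.15 ± 0.24) and *Mrps30* (0.32 ± 0.18) complete the group. With total-count scaling these 6 genes were among the 12 that were lower at 2 wks, with estimates from -1.11 for *Mrps2* to -0.60 for *Mrps30*. *Mrps30* read 32.05, 18.2, 27.5 and 32.05 CPM in the embryos and 35.0, 36.9, 30.7 and 34.8 CPM at 2 wks, so the ages overlapped.

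Between 2 and 7 wks little moved. With TMM, 2 members were higher and 0 were lower, against 13.5% and 13.9% of all genes, and the median log2 fold change was 0.08. At an unadjusted p below 0.05 there were 10 members, of which 2, *Mrpl52* (-0.77 ± 0.34) and *Mrps12*, had lower estimates. DESeq2 called *Mrpl42* and *Mrpl50* higher and *Mrps12* lower. With total-count scaling 0 members were higher and 13 were lower (4.92% and 28% of all genes), with a median of -0.28 against -0.38 for all genes.

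*Mrpl42*, a mitochondria-specific large-subunit protein, read 92.9, 75.5, 86.1 and 120.1 CPM at E18.5, 222.3, 269.4, 262.9 and 281.7 CPM at 2 wks and 320.1, 370.2, 425.5 and 346.9 CPM at 7 wks, so that no ages overlapped. It rose by 1.47 ± 0.17 to 2 wks and by 0.50 ± 0.16 from 2 to 7 wks with TMM (adjusted p = 0.0376). *Mrpl50*, also specific to mitochondria, read 75.2, 51.0, 57.8 and 65.5 CPM at E18.5, 56.4, 66.7, 63.9 and 70.9 CPM at 2 wks and 92.7, 95.2, 87.1 and 87.0 CPM at 7 wks. It was level until 2 wks and rose by 0.49 ± 0.14 afterwards (adjusted p = 0.0188).

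The calls of these late changes, more than their size, depended on single mice, since the estimates with 1 library left out were 0.42 to 0.56 for *Mrpl42* and 0.42 to 0.54 for *Mrpl50*. The call of *Mrpl42* was lost without replicate 1, 2 or 3 of 2 wks or without replicate 2, 3 or 4 of 7 wks, and the call of *Mrpl50* without replicate 1 of 2 wks or replicate 2 of 7 wks. Without replicate 3 of 7 wks, the mouse with the highest MRP sum of its age, 4 members were lower from 2 to 7 wks, *Mrpl52*, *Mrps12*, *Mrps28* and *Mrps34*. The estimates of *Mrpl42* and *Mrpl50* were 0.15 and 0.14 on the total count and did not pass.

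Over the whole span from E18.5 to 7 wks, 73 members were higher and 0 were lower with TMM, against 34.3% and 37.1% of all genes, with a median of 1.31. This comparison shares the embryos with that of E18.5 and 2 wks. *Mrpl50* (0.54), *Mrps30* (0.43) and *Mrps6* (0.60) passed here and not at 2 wks, and *Mrps18c* (0.64) did not pass. *Mrpl14* (3.45 ± 0.41), *Mrps28* (2.65 ± 0.26), *Mrpl12* (2.595 ± 0.32), *Mrpl34* (2.57 ± 0.42), *Mrpl2* (2.44 ± 0.27) and *Mrpl55* (2.44 ± 0.29) were highest. Scaled to the total count, 20 were higher and 21 lower (11.9% and 69% of all genes), with a median of 0.02 against -1.36 for all genes.

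The change before 2 wks was then tested against the change after 2 wks within each gene. The former exceeded the latter in 54 members and was smaller in 0, against 21.6% and 16.8% of all genes. The difference was greatest for *Mrps12* (3.62 ± 0.53), *Mrpl14* (3.52 ± 0.62), *Mrps28* (3.37 ± 0.41) and *Mrpl34* (3.25 ± 0.66). Scaled to the total count it was positive in 31 members and negative in 1 (12.1% and 31.7% of all genes). The 2-wk libraries enter both changes with opposite sign, so high values in them raise the difference. The intervals also differ in length.

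Ratios of gene sums within a library do not depend on the scaling between libraries. A share of all counts does, since it is the total-count scale itself. Of all counts, MRP mRNAs took 0.238% to 0.346% in the embryos, 0.319% to 0.392% in mice of 2 wks and 0.258% to 0.382% in mice of 7 wks, and the ranges overlapped. With TMM the same sums were 1471, 1577, 1771 and 2130 CPM at E18.5, 3921, 4249, 3872 and 4675 CPM at 2 wks and 3695, 4446, 5726 and 4458 CPM at 7 wks. The embryos lay apart on this scale only. The large-subunit sum was 2.51 ± 0.109 times the small-subunit sum at E18.5, 2.64 ± 0.024 times at 2 wks and 2.71 ± 0.036 times at 7 wks, with overlap between neighbouring ages.

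Cytosolic ribosomal protein mRNAs, which serve translation outside mitochondria, exceeded MRP mRNAs 9.62 ± 2.09 times at E18.5, 4.42 ± 0.579 times at 2 wks and 3.52 ± 0.337 times at 7 wks. The embryos (6.98 to 12.1) did not overlap the mice of 2 wks (3.77 to 5.10). Nuclear OXPHOS mRNAs exceeded MRP mRNAs 6.36 ± 0.646 times at E18.5, 10.98 ± 0.191 times at 2 wks and 10.7 ± 0.363 times at 7 wks. For each MRP read there were thus fewer cytosolic ribosomal and more OXPHOS reads at 2 wks than in any embryo. The ratio of mRNAs encoded by mitochondrial DNA to MRP mRNAs was 18.8 ± 5.70, 25.1 ± 5.22 and 49.3 ± 11.05, and all 4 mice of 7 wks (33.9 to 60.1) lay above all 4 of 2 wks (20.7 to 31.6). These are descriptions of 4 mice per age, with no test.

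**Figure D3:**
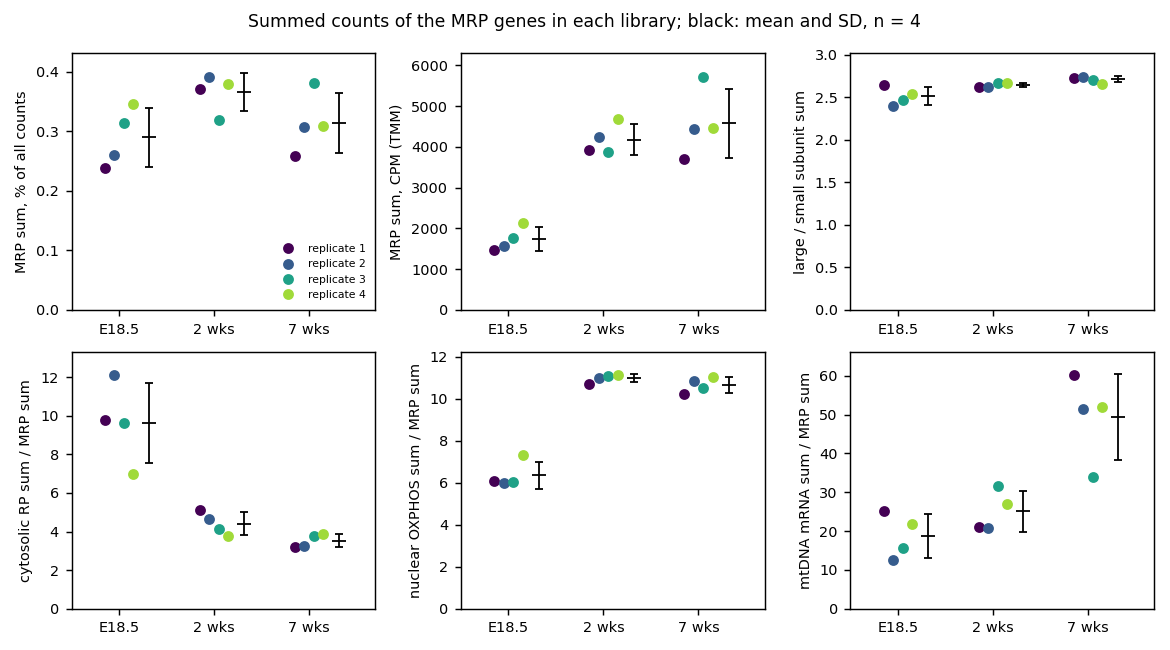
Summed counts of the MRP genes in each library as a percent of all counts and in CPM with TMM scaling, and 4 ratios of sums within a library, with axes from 0 and the mean and SD of 4 mice in black. Embryos and 2-wk mice separate for the TMM sum, the cytosolic ratio and the OXPHOS ratio, but not for the percent of counts or the subunit ratio.

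Within the family the mix of transcripts shifted. When libraries were scaled to the MRP sum, so that a change is relative to the family, 22 members gained and 22 lost between E18.5 and 2 wks (9.1% and 69.2% of all genes passed in these directions). *Mrpl14* gained most (2.19) and *Mrps2* lost most (-1.44). *Mrpl12* grew from 1.46% ± 0.541 to 3.83% ± 0.313 of the MRP counts and *Mrpl51*, a mitochondria-specific large-subunit protein, from 2.64% ± 0.330 to 4.84% ± 0.363. *Mrpl50* shrank from 3.67% ± 0.965 to 1.54% ± 0.0889 and *Mrps22* from 1.32% ± 0.253 to 0.529% ± 0.015. From 2 to 7 wks 0 members gained and 2 lost, *Mrps12* (-1.05) and *Mrpl52* (-0.97), against 4.97% and 11.7% of all genes.

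**Figure D4:**
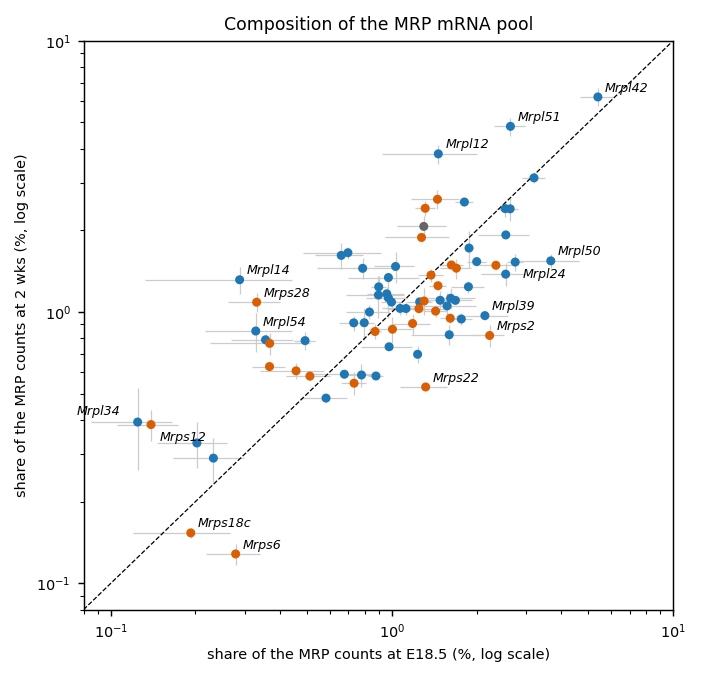
Share of each MRP gene in the summed MRP counts at E18.5 and at 2 wks, in percent on log axes, as means of 4 mice with SD (blue, large subunit; orange, small subunit; grey, Mrps36; dashed, equal share). Mrpl12 and Mrpl51 lie above the dashed line, and Mrpl50, Mrps2 and Mrps22 below it.

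A set of 22 members rose to 2 wks under every setting run, the scaling to the MRP sum included. It is the same set that gained on the MRP sum, so the other settings removed none. It holds the large-subunit genes *Mrpl2*, *Mrpl4*, *Mrpl12*, *Mrpl14*, *Mrpl16*, *Mrpl18*, *Mrpl28*, *Mrpl34*, *Mrpl43*, *Mrpl51*, *Mrpl52*, *Mrpl54*, *Mrpl55* and *Mrps18a*, the small-subunit genes *Mrps7*, *Mrps12*, *Mrps21*, *Mrps23*, *Mrps24*, *Mrps28* and *Mrps34*, and *Mrps36*. The share of all genes that rose under every setting was not counted, and on the MRP sum alone 9.1% of all genes were higher.

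Levels per kilobase of transcript spread widely although the proteins are mostly present once in each ribosome. With TMM, *Mrpl42* stood highest and *Mrps21* next at each age, at 120.8 and 45.6 CPM per kilobase at E18.5, 334.3 and 195.2 at 2 wks and 471.8 and 225.4 at 7 wks. The next place was taken by *Mrpl50* (27.8) at E18.5, *Mrps36* (77.5) at 2 wks and *Mrps23* (89.7) at 7 wks. *Mrps21*, a small conserved protein, rose from 25.3 ± 6.25 to 108.3 ± 4.85 CPM by 2 wks, and *Mrps23*, a mitochondria-specific small-subunit protein, from 22.8 ± 3.93 to 101.1 ± 14.7 CPM. Lowest at every age were *Mrpl53*, listed at 0, *Mrps18c* (0.871, 1.73 and 1.36) and *Mrpl57* (1.35, 4.21 and 3.18). Transcript lengths were those of the canonical GENCODE transcript, and isoforms in use were not measured.

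Size of change went with the level at E18.5 and with features of the transcript. Its Pearson correlation with log2 E18.5 CPM was -0.55 (Spearman -0.52), but the E18.5 level enters the change itself. Over 77 members, the log2 fold change to 2 wks with TMM had a Pearson correlation of 0.46 with GC content (Spearman 0.47) and of -0.33 with log2 transcript length (Spearman -0.36), as a description across genes, which are not independent replicates. Over all 19034 genes with these features the values were 0.32 and -0.12. The median log2 fold change of the 25 shortest members was 1.57, that of the 27 of middle length 1.24 and that of the 25 longest 0.99. After correction for a GC trend in each library, 71 members were higher and 2 lower (27.4% and 38.9% of all genes), and after the same correction for length, 57 were higher and 3 lower (25.6% and 42.5%).

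Many members overlap other genes. In the GENCODE annotation of GRCm39, 43 members share exon bases with a gene on the opposite strand and 8 with a gene on the same strand, while 32 share none. The libraries were made with a kit that keeps the strand, but the strand setting of the counting was not given in the sources used here, so reads of such pairs may not have been told apart. *Mrpl54* shares 94.4% of its exon bases with *Matk*, which had at most 119 reads in a library, whereas *Mrpl54* had at least 509. *Mrps34* shares 62.6% with *Mapk8ip3* (at most 15308 reads, against at most 2853 of *Mrps34*), and *Mrps7* shares 48.1% with *Mif4gd* (at most 4180 reads). *Mrpl14* shares 23.7% with *Tmem63b* (at most 10320 reads, against at most 5492 of *Mrpl14*). *Mrps12* shares 19.3% with *Sars2*, the mitochondrial seryl-tRNA synthetase gene. Values of such members are less certain than those of *Mrpl42*, which overlaps none.

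Sequences around the transcription start were read for motifs of factors with known ties to mitochondrial and ribosomal genes. RefSeq promoters of GRCm38.p6, from 250 bases before to 50 bases after the start, were at hand for 69 members, with 75 windows. Letters were searched on both strands, and motifs given by name only are those in capitals in the sequences printed after them. The palindromic NRF1 motif was found in 17.3% of the MRP windows and in 6.38% of all 21263 protein-coding promoters, the ETS motif CCGGAAGT in 16% and 5.15%, the extended YY1 motif in 6.67% and 1.21% and the SP1 motif GGGGCGGGG in 20% and 15.4%. A motif of ZNF143 and THAP11 was added after sequences had been seen and was found in 6.67% and 2.54%.

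Median changes of members with and without a motif lay close together for 4 of the 5 motifs. For the log2 fold change to 2 wks the median was 1.24 in the 13 with and 1.13 in the 55 without the NRF1 motif, and 1.29 in the 12 with and 1.16 in the 56 without the ETS motif. For YY1 and for SP1 it was 1.19 with and 1.14 without. It was 0.41 in the 5 members with the ZNF143 motif and 1.19 in the 63 without it. A match is no evidence that a factor binds.

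The 150 bases before the start are shown for members with each motif, 4 of which rose (*Mrps11*, of the small subunit, by 1.68 ± 0.23) and 2 of which (*Mrps22* and *Mrpl50*) did not pass. The bases shown lie at chr11:120484487-120484636 (plus strand), chr6:125192050-125192199 (plus), chr7:78782981-78783130 (plus), chr8:71464776-71464925 (plus), chr9:98601680-98601829 (minus) and chr4:49521084-49521233 (minus) of GRCm38.p6, each written from 5′ to 3′ on the strand of the gene. Capitals mark the NRF1 motif in *Mrpl12*, the ETS motif in *Mrpl51*, the YY1 motif in *Mrps11*, ZNF143 motifs in *Mrpl34* and *Mrpl50*, and the SP1, ZNF143 and ETS motifs in *Mrps22*.
Mrpl12: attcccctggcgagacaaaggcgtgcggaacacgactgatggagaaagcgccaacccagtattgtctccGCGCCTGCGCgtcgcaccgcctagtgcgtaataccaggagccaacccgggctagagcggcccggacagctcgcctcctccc
Mrpl51: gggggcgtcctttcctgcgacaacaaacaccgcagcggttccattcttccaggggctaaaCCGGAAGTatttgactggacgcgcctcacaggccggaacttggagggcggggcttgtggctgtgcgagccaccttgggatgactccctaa
Mrps11: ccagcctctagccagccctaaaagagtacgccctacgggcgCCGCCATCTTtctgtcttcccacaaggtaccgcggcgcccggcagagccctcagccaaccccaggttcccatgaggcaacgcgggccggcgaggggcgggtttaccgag
Mrpl34: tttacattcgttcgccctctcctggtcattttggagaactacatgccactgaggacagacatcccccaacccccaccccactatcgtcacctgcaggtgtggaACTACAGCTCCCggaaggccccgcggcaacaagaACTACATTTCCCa
Mrps22: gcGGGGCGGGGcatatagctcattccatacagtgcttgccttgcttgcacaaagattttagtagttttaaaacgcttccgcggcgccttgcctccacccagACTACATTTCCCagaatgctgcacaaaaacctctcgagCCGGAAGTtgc
Mrpl50: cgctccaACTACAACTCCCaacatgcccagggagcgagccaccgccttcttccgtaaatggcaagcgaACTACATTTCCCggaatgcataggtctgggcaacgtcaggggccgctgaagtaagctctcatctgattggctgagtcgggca
The ZNF143 letters occur in *Mrpl34* (2.91), *Mrpl42* (1.47) and *Mrpl24* (0.41), which passed, and in *Mrpl50* and *Mrps22*, which did not. The contrast among the printed promoters was set by the way they were picked.

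Genes that build and serve the mitochondrial ribosome were counted in the same fit, in lists chosen for their function. With TMM, from E18.5 to 2 wks, 4 of 5 mitoribosomal proteins with other symbols were higher (median 1.65), among them *Aurkaip1* (1.97 ± 0.24) and *Chchd1* (1.70 ± 0.17). Of 25 assembly factors 18 were higher and 0 were lower (median 0.91), led by *Spg7*, a subunit of the protease that matures Mrpl32 (2.07 ± 0.22), and *Mrm2*, an rRNA methyltransferase (1.92 ± 0.25). Of 19 translation factors 13 were higher and 1 was lower (median 0.86), with *Letm1* (2.00 ± 0.30) and *Tufm*, the elongation factor that brings aminoacyl-tRNA (1.70 ± 0.28), at the top, and *Guf1*, a translational GTPase, lower (-0.63 ± 0.17). On the total count the splits were 3 higher and 1 lower, 5 higher and 7 lower, and 4 higher and 7 lower, on a scale where 13.2% of all genes were higher and 61.8% lower.

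Nuclear OXPHOS subunits exceeded the family, with 80 of 84 higher and 1 lower with TMM (median 2.19) and 70 higher and 4 lower on the total count. Of 83 cytosolic ribosomal protein genes, 31 were higher and 18 lower with TMM (median 0.27), where 31.5% and 34.2% of all genes passed in these directions, and 7 were higher and 43 lower on the total count. Of 13 mRNAs of mitochondrial DNA, 12 were higher at 2 wks with TMM (median 1.78) and 8 on the total count, and from 2 to 7 wks 8 were higher with TMM (median 1.097) and 4 on the total count. In these counts 6 of the 13 genes had only 3 to 89 reads in their lowest library. *mt-Nd2*, a complex I subunit, rose by 1.34 ± 0.26 in that second span. In the same span 0 of the 84 nuclear OXPHOS subunits were higher and 3 were lower with TMM. Of all genes, 13.5% were higher and 13.9% lower from 2 to 7 wks with TMM, and 4.92% and 28% on the total count. Differences between the lists were not tested.

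**Figure D5:**
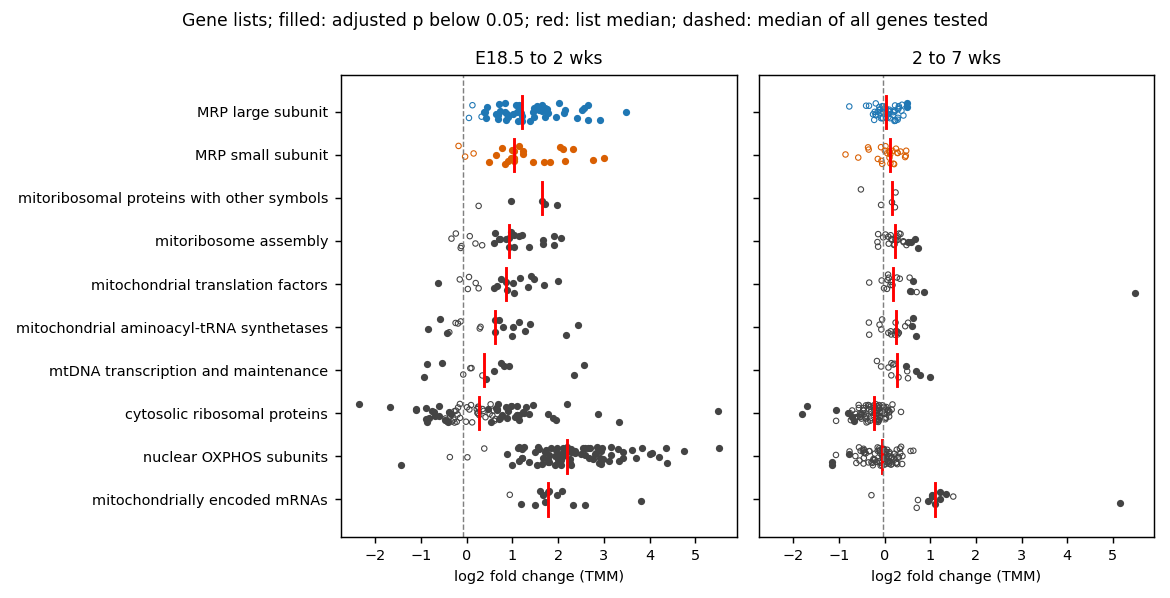
Log2 fold change (TMM) of each tested gene of the MRP subunits and of 8 related lists, from E18.5 to 2 wks (left) and from 2 to 7 wks (right). Filled points passed the adjusted threshold, red bars mark list medians and the dashed line marks the median of all genes. At left the MRP medians (1.21 and 1.04) lie between those of cytosolic ribosomal proteins (0.27) and nuclear OXPHOS subunits (2.19), and at right the list with the highest median is that of mitochondrially encoded mRNAs (1.097).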

How the data were processed

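RNA of TA muscle pieces was isolated with TRI Reagent and sequenced in paired-end reads of 100 bases after a stranded mRNA library preparation. The deposited values are raw counts of reads per Ensembl gene. Per the labels, the authors used bcl2fastq 2.17.1.14, cutadapt 1.10, STAR 2.5.3a, HTSeq 0.6.1p1 and the build mm10, whereas the methods of the study name GRCm39 and Cufflinks. The annotation and the strand setting of the counting are not given in the sources used here. Symbols, transcript lengths, GC content and overlaps were taken from GENCODE M39 on GRCm39, in which 51477 of the 55450 identifiers were found and 3973 were not.

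TMM factors scaled the libraries. All 12 entered 1 model with a mean per age, fitted in edgeR 4.0.16 under R 4.3.3 (with limma 3.58.1) and tested by quasi-likelihood. filterByExpr left 19276 genes, and p-values were adjusted over all of them by Benjamini-Hochberg with a threshold of 0.05. The biological coefficient of variation was 0.279. Errors of log2 fold changes are standard errors, and CPM values carry TMM scaling. P-values rest on the spread between 4 mice per age. The procedure was also run on simulated counts in which few genes changed and library composition hardly shifted. Such counts cannot test the choice of scale. Members, lists, motifs and alternatives were chosen with earlier results of these data known. Any member could be named. Singled out were the 6 members with the largest rise and fall past the threshold in each comparison of ages, the 4 with the largest difference between the intervals each way, the 3 highest and 3 lowest per length, the Mrps18 paralogs, the stalk genes, *Mrpl58*, *Mrps12*, *Mrps30*, *Mrps36* and members left untested, and from each related list the 2 largest rises and falls in both intervals, of which the text gives a part. Alternatives were total-count, upper-quartile and MRP-sum scaling, DESeq2 1.42.0, other filters, the replicate block, only the ages compared, GC and length corrections and leaving out each library. Leaving out 2 embryos together and the ZNF143 motif were chosen after seeing the data.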

Additional observations from a re-analysis of the deposited data

Results flagged for a closer look

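In sets of 4 libraries, a value was looked at again when its gap to its nearest neighbour took more of the range of the set than Dixon's critical value allows. Of 93 sets of 4 examined, 5 had such a library, against 4.65 (about 1 in 20) that chance gives. At 2 wks, replicate 4 was high for *Mrpl12* (197.1 CPM, others 146.5 to 151.6), *Mrpl2* (87.05 CPM, others 61.07 to 61.87) and *Mrpl55* (39.61 CPM, others 30.21 to 31.72). Replicate 3 of 2 wks was low for *Mrps6* (4.504 CPM, others 5.55 to 5.708). Replicate 4 of E18.5, which was also the library with the most adipocyte marker reads, had a ratio of nuclear OXPHOS to MRP sums of 7.325 (others 5.986 to 6.072).

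The change before and the change after 2 wks differed in 54 members by the contrast of the intervals, in which the 2-wk libraries enter both changes. Reads were also listed for 5 processed pseudogenes of the family, which are no members. The highest count in a library was 171 for *Mrpl48-ps*, 90 for *Mrpl23-ps1*, 50 for *Mrps36-ps1*, 10 for *Mrps36-ps2* and 9 for *Mrpl27-ps*, and *Mrps36-ps3* was at 0. Reads that fit both a member and its copy could have been assigned to either or dropped.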

How the results depend on the processing

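Scaling mattered most. In the order E18.5 to 2 wks, 2 to 7 wks, E18.5 to 7 wks and difference between the intervals, the members higher and lower numbered 33 and 12, 0 and 13, 20 and 21, and 31 and 1 on the total count. They numbered 22 and 22, 0 and 2, 20 and 25, and 16 and 11 on the MRP sum. On that scale 9.1% and 69.2% of all genes were higher and lower in the first comparison, and 4.97% and 11.7% in the second. For E18.5 to 7 wks and for the difference the shares are not given here, but the median of all genes was -1.48 and -1.18. Most counts that follow are given without such shares and describe the members only. In the first comparison 2 members were lower with the GC trend removed and 3 with the length trend removed, and the same numbers were lower in the difference between the intervals. From 2 to 7 wks, 1 was higher and 1 lower with the GC trend removed, 4 higher and 2 lower with the length trend removed, 0 higher and 1 lower with upper-quartile scaling, 0 higher with no filter, 1 lower with at least 10 counts in every library, 5 higher with only the 2 ages compared and 1 lower (*Mrps12*) with DESeq2. From E18.5 to 7 wks, 1 was lower with upper-quartile scaling, with at least 10 counts in every library (*Mrps2* in both) and with the length trend removed. The causes were not tested.

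Leaving out each library in turn gave 68 to 71 members higher and 0 lower from E18.5 to 2 wks, 0 to 3 higher and 0 to 4 lower from 2 to 7 wks, 71 to 74 higher and 0 to 1 lower (1 without replicate 2 of E18.5) from E18.5 to 7 wks, and 40 to 56 higher and 0 lower for the difference. Samples with the same replicate number did not deviate together (correlations of -0.14 to 0.28), so the numbers were not treated as pairs. With the replicate number as a block, 71, 2, 72 and 53 members were higher and 0, 1, 0 and 0 were lower.

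From E18.5 to 2 wks the sign of the estimate changed in 23 of the 77 members on the total count, in 41 on the MRP sum, in 6 with the length trend removed, in 4 with the GC trend removed and in at most 3 under each other setting. Among the members singled out, the estimates that changed sign on the total count were -0.29 for *Mrpl10*, -0.81 for *Mrpl39*, -0.88 for *Mrpl50*, -0.60 for *Mrps30* and -0.78 for *Mrps6*. On the MRP sum those of the members singled out were -0.61 for *Mrpl10*, -0.12 for *Mrpl11*, -1.14 for *Mrpl39*, -1.25 for *Mrpl50*, -0.22 for *Mrps18b*, -0.33 for *Mrps18c*, -0.96 for *Mrps30* and -1.11 for *Mrps6*. With the length trend removed they were -0.25 for *Mrpl39*, -0.41 for *Mrpl50* and -0.72 for *Mrps6*, and with the GC trend removed -1.02 for *Mrps6*, 0.21 for *Mrps2* and 0.24 for *Mrps22*. *Mrpl40*, which is not one of them, went from 0.68 to -0.55 with the GC trend removed and was called lower. Upper-quartile scaling gave -0.017 for *Mrpl39* and -0.094 for *Mrpl50*. For *Mrpl50* the estimate was -0.002 with no filter, -0.077 with at least 10 counts in every library and -0.005 with DESeq2. Without the 2 embryos of high adipocyte markers it was 0.057 for *Mrps2* and 0.076 for *Mrps22*. Leaving out 1 library gave -0.036 to 0.28 for *Mrpl39*, -0.036 to 0.15 for *Mrpl50*, -0.15 to 0.056 for *Mrps22* and -0.001 to 0.28 for *Mrps6*.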

Other observations

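Factors that copy, express and charge for the mitochondrial genome changed less evenly than the ribosomal proteins. With TMM, 11 of 20 mitochondrial aminoacyl-tRNA synthetase genes and their partners were higher and 3 were lower from E18.5 to 2 wks (median 0.62), and on the total count 2 were higher and 9 lower. Of all genes, 31.5% were higher and 34.2% lower with TMM, and 13.2% and 61.8% on the total count. *Aars2* (2.43 ± 0.24) and *Sars2* (2.17 ± 0.26), which charge alanine and serine tRNAs, rose most, and *Rars2* (-0.84 ± 0.15) and *Wars2* (-0.59 ± 0.17), for arginine and tryptophan, fell most. Of 14 genes of mitochondrial DNA transcription and maintenance, 7 were higher and 3 lower with TMM (median 0.38), and 2 higher and 8 lower on the total count, where the shares lay near those of all genes. *Esrra*, a nuclear receptor that acts on OXPHOS genes, rose by 2.58 ± 0.34, and *Polrmt*, the mitochondrial RNA polymerase, by 2.34 ± 0.36. *Gabpa*, an ETS factor, fell by 0.88 ± 0.20 and *Mterf1a*, a termination factor, by 0.93 ± 0.20, while *Nrf1* stood at 13.3 ± 2.46, 12.6 ± 0.717 and 13.9 ± 1.51 CPM.

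From 2 to 7 wks, when the ribosomal protein genes changed little, *Mss51*, a muscle gene named after a yeast activator of mitochondrial translation, went from 10 ± 1.75 to 448.5 ± 168.2 CPM (log2 fold change 5.49 ± 0.32, adjusted p = 1.61e-06). *Ppargc1a*, a coactivator of mitochondrial genes, rose by 0.99 ± 0.31 and *Tfb2m*, a mitochondrial transcription factor, by 0.77 ± 0.19. *Fastkd2* (0.73 ± 0.18) and *Gtpbp10* (0.66 ± 0.17), which act on the large subunit's RNA and assembly, *Mtrf1* (0.87 ± 0.18), a release factor, and *Gatc* (0.61 ± 0.13), a subunit of the mitochondrial glutamyl-tRNA amidotransferase, rose too. All 7 of these kept a positive estimate on the total count.

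*Rpl3l*, the muscle form of a cytosolic ribosomal protein, went from 13.1 ± 3.49 to 588.8 ± 66.2 CPM by 2 wks (5.49 ± 0.30), while *Rpl3* went from 234.6 ± 18.3 to 72.6 ± 14.2 CPM (-1.69 ± 0.17). *Cox6a2*, the muscle form of a complex IV subunit, rose by 5.51 ± 0.56, while *Cox6a1*, the widely expressed form, was at 20.9 ± 10.2 CPM at E18.5 and 21.1 ± 3.15 CPM at 2 wks.

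Among the mRNAs of mitochondrial DNA, counts were uneven. The lowest library count was 1566831 for *mt-Co1* but 75 for *mt-Co2*, 89 for *mt-Co3*, 36 for *mt-Atp6*, 23 for *mt-Nd3*, 12 for *mt-Atp8* and 3 for *mt-Nd4l*, so their single values say little and the sums above rest on the other genes. *mt-Co3* spread to 192.7 ± 208.7 CPM at 7 wks.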
